A study of Mus musculus with 3 samples.

Results

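The genes described here are the chemokines, the interleukins and a small group of growth cytokines (Csf1, Csf2, Csf3 and Lif) of NIH3T3 cells, an established line of mouse embryo fibroblasts. They were chosen by gene symbol alone, as the rows named Ccl, Cxcl or Il with a number, together with Cx3cl1, Csf1, Csf2, Csf3 and Lif. This gave 81 of the 55573 genes listed, under 76 names, because Ccl19, Ccl21a, Ccl21b and Ccl27 are each listed under more than 1 gene ID. The cells were grown in DMEM with fetal bovine serum, penicillin and streptomycin, detached with trypsin and lysed without any stimulus. UMI-RNAseq, in which every molecule carries a random tag so that PCR copies can be removed, was made from 3 libraries of this 1 condition, called library 1, library 2 and library 3. No group could be compared with another, no test was run, and the sources used here do not say whether the libraries came from separate cultures. The SDs below may therefore cover technical spread only.

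Chemokines are small secreted proteins that guide migrating cells through G protein-coupled receptors, and the arrangement of their first cysteines divides them into the CC, CXC and CX3C classes. CXC chemokines with the ELR residues before the cysteines attract mainly neutrophils, whereas most CXC chemokines without ELR attract lymphocytes. Interleukins and colony-stimulating factors signal through receptor chains that in many cases activate JAK kinases and STAT factors. Fibroblasts are known as a source of chemokines and of macrophage growth factor, and many of these genes are switched on by NF-kB when cells meet inflammatory signals.

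Levels are given as FPKM, which scales the fragments of a gene by its length in kilobases and by the fragments of its library in units of 1000000. Working back from the FPKM and the annotated lengths, the libraries held 14423209, 13959722 and 14307242 fragments in libraries 1 to 3. The cell identity was checked first. Of 12 fibroblast markers, 10 had a mean FPKM of at least 1, led by Fn1 (4377), with Lum listed at 0 and Fap at 0.0378. None of 10 retina markers reached 1 FPKM, although the extraction text of the labels mentions retina; Rcvrn was the highest at 0.363, and Nrl was listed at 0. Of 12 leukocyte markers, S100a8 (3.53) and Lyz2 (2.54) passed 1 FPKM, and the sum of the list lay between 5.91 and 6.61 in the libraries. The pan-leukocyte gene Ptprc was at 0.0245 FPKM, and Cd3e, Itgam, Adgre1 and Ncr1 were listed at 0. Of 6 endothelial markers, Vwf (1.64) and Cdh5 (1.35) passed 1 FPKM, and Emcn was listed at 0.

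The promoters of 4 genes are shown because they carry a similar motif while the genes stood at very different levels. Each line gives the bases from 130 to 31 before the start of the gene, 5′ to 3′ on the strand of the gene, from RefSeq on GRCm38.p6. Capitals mark the bases covered by matches to the NF-kB consensus on either strand. The regions are chr5:90891115-90891214 (+ strand) for Cxcl1, chr5:90903769-90903868 (+ strand) for Cxcl2, chr5:92348920-92349019 (− strand) for Cxcl10 and chr5:30012984-30013083 (+ strand) for Il6.
Cxcl1: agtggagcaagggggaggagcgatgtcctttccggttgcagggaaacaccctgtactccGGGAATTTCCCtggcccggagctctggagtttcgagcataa
Cxcl2: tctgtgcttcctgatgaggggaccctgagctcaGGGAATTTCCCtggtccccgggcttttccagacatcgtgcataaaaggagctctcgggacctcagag
Cxcl10: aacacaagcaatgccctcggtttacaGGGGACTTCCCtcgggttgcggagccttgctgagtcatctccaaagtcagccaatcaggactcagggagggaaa
Il6: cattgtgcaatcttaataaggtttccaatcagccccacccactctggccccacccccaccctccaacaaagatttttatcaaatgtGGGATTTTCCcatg

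Cxcl1 and its neighbour Cxcl2 both encode neutrophil attractants. Their longest shared run in the bases searched was GGGAATTTCCCTGG (14 bases), which starts 71 bases before the start of Cxcl1 and 97 bases before that of Cxcl2. The level of Cxcl1 was 65.0 ± 0.672 FPKM (SD, n = 3), and Cxcl2 was listed at 0 in every library. The motif was therefore present in front of a gene that was made and of one with no fragment. Cxcl10 stood at 15.2 FPKM and Il6 at 0.658 FPKM. A match is a description of letters and not a site of binding. Of the 76 names, 53 had a promoter in the RefSeq table; Ccl2, Ccl7, Ccl5, Cxcl5 and Il34 are among those named only. In the 250 bases before the start, the NF-kB consensus was found in 6 of 15 members with a mean FPKM of at least 1 (40%), in 6 of 38 members under 1 (15.8%) and in 8.23% of 27025 genes. The AP-1 motif TGANTCA was found in 6 of 15 (40%), 5 of 38 (13.2%) and 7.82%, respectively, searched on either strand. Lif, Cxcl10, Ccl9 and Il16 held both motifs among the members with a mean of at least 1, and Csf1 and Cxcl1 held only the NF-kB match. Ccl25, Il18, Cx3cl1, Ccl8, Il4, Csf2 and Ccl28 held neither, which is 7 of the 15.

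A small number of the cytokine genes carried nearly all of the signal. Of the 81 rows, 22 had a mean FPKM of at least 1 (27.2%), where 23.2% of all genes did. Among protein-coding genes, 22 of 80 members (27.5%) stood beside 49.2% of 21980 genes. At an FPKM above 0 in every library the count was 35 of 81 (43.2%), beside 34% of all genes and 61.1% of the protein-coding genes. The share of cytokines past either limit thus lay near that of all genes listed and under that of protein-coding genes. Their summed FPKM was 1205 ± 1.19 (SD, n = 3). Csf1 alone held 32.9% of it, and Csf1 and Ccl2 together held 62.8%. The 5 highest members held 83.8% ± 0.219. The 22 members above the limit held 99.6%, a high share that the limit itself sets, since every other row had a mean under 1 FPKM. All these shares are of genes ranked by their own level, and no other gene set was measured beside them. With the longest annotated isoform as the length of each gene, Csf1 held 21.9% ± 0.393 and Ccl2 36.4% ± 0.603, so the leading gene depends on the length used. By family, the sum was 693.5 ± 11.1 for 44 chemokine rows, 442.8 ± 6.15 for the 4 growth cytokines and 69.0 ± 3.96 for 33 interleukins. The chemokine sum rose from library 1 to library 3 while the others fell, so the small SD of the whole sum reflects shifts that cancelled. The growth cytokine sum came to 220.8 with the longest isoforms.

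**Figure D1:**
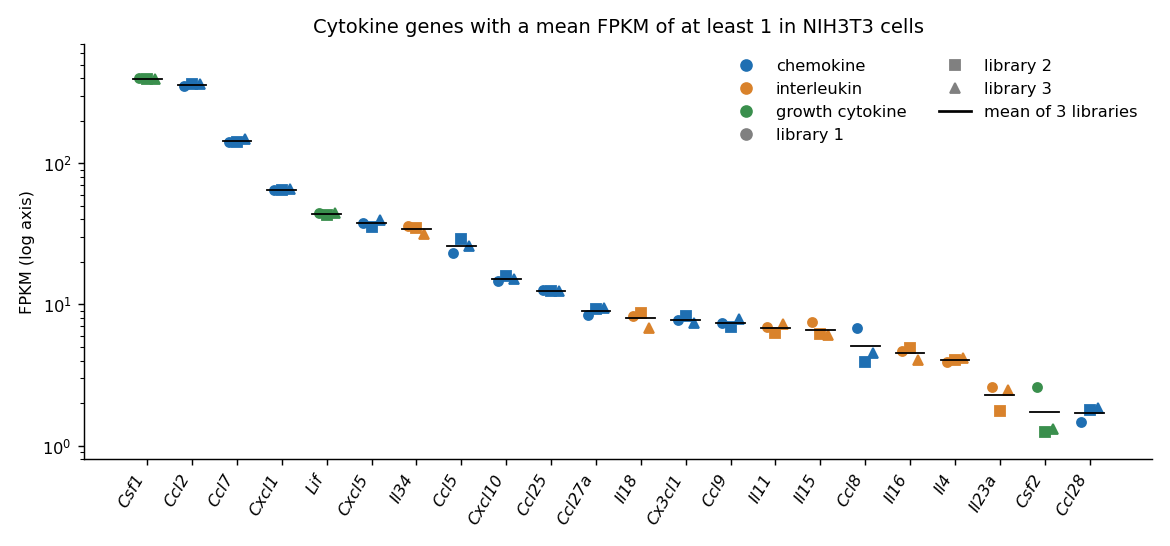
FPKM on a log axis of the 22 cytokine genes with a mean of at least 1, ordered by mean; symbols are the 3 libraries, colours the families, and black bars the means. Csf1, Ccl2 and Ccl7 lie above 100 FPKM with nearly coinciding symbols, while Ccl8, Il23a and Csf2 at the right show the widest gaps between libraries.

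Among the growth cytokines, 3 of 4 passed 1 FPKM. Csf1, which encodes the macrophage growth factor M-CSF, stood at 402.9, 395.4 and 392.8 FPKM and had the highest mean of all members, 397.0 ± 5.25 (SD, n = 3). By mean level it took place 212 of the 12905 genes that reached 1 FPKM. The gene lies at chr3:107741048-107760469 on the − strand (GRCm38), and its 3 values rest on at least 10979 fragments each. Lif, a cytokine of the IL-6 family that keeps mouse embryonic stem cells undifferentiated, stood at 44.4, 43.1 and 44.7 FPKM (mean 44.1 ± 0.844). Csf2, the gene of GM-CSF, was far lower. Its values were 2.60, 1.25 and 1.31 FPKM (mean 1.72 ± 0.761), from 30, 14 and 15 fragments. Library 1 was the high one, and the exact 95% Poisson intervals of libraries 1 and 2, 1.75 to 3.71 and 0.685 to 2.10 FPKM, overlapped. Csf3, the gene of the neutrophil growth factor G-CSF, had 1 fragment in each library and a mean of 0.0497 FPKM.

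Il34 encodes the other ligand of the M-CSF receptor. It was the highest interleukin, at 36.1, 35.1 and 31.5 FPKM (mean 34.2 ± 2.41), and Csf1 exceeded it 11.6 ± 0.725 times within libraries. Both ligands were thus present in all libraries, while their receptor Csf1r was at 0.0343 FPKM.

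The CC chemokines summed to 567.7 ± 10.1 FPKM, and 8 of 30 rows passed 1 FPKM. Ccl2, the monocyte attractant MCP-1, stood at 352.6, 366.3 and 361.6 FPKM (mean 360.2 ± 6.94) and made up 63.4% of the class. Ccl7, a related attractant of monocytes, stood at 142.0, 140.9 and 148.9 FPKM (mean 143.9 ± 4.29). Within libraries Ccl2 exceeded Ccl7 2.50 ± 0.0867 times. Ccl5 (RANTES), which attracts T cells and monocytes, gave 23.1, 29.0 and 25.7 FPKM (mean 26.0 ± 2.96), and library 2 was the highest. Ccl25, best known from thymus and small intestine, gave 12.6, 12.5 and 12.5 FPKM, so that its libraries lay closer together than those of any other member above the limit. Its annotated span overlaps Elavl1 (22.8 FPKM) by 204 bases on the opposite strand, and whether the counting used strand is not given in the sources used here.

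The lower CC chemokines had means between 1 and 10 FPKM. Ccl27a, known from skin, had 8.44, 9.22 and 9.48 FPKM. Of its bases, 22.4% lie in stretches of at least 75 bases shared with other genes, among them Ccl27b and gene models beside it, so reads may have been split or dropped there. Ccl9, a macrophage chemokine, had 7.33, 6.94 and 7.93 FPKM. Ccl8, an attractant related to Ccl2, had 6.78, 3.93 and 4.51 FPKM from 50, 28 and 33 fragments, and library 1 stood above the other two. Ccl28, a chemokine of mucosal tissues, was the lowest member above the limit at 1.46, 1.79 and 1.85 FPKM (mean 1.70 ± 0.210). Just below the limit lay Ccl20, the ligand of Ccr6, at 0.628, 0.937 and 1.19 FPKM (mean 0.920). The ranges of Ccl28 and Ccl20 did not overlap, although their counting intervals did in each library. Ccl4 (0.391), Ccl17 (0.183), Ccl27b (0.113) and Ccl11 (0.108) followed. Of the bases of Ccl27b, 98.4% are shared with other genes, and its value rests on 1 fragment each in libraries 2 and 3, so it says little about its level.

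Of the 5 ELR-bearing CXC chemokines that the naming rule took, 2 passed 1 FPKM, and these 5 summed to 102.6 ± 2.71 FPKM. Ppbp, an ELR-bearing CXC chemokine outside the rule, was at 1.34, 0.926 and 0.968 FPKM (mean 1.08). Cxcl1 was at 64.6, 64.7 and 65.8 FPKM. Cxcl5, also a neutrophil attractant acting on Cxcr2, was at 37.7, 35.3 and 39.6 FPKM (mean 37.6 ± 2.14), and Cxcl1 exceeded it 1.73 ± 0.0868 times. Cxcl3 had 1 fragment in all, and Cxcl2 and Cxcl15 were listed at 0. In each library Cxcl1 was at least 408.7-fold above the level that 3 fragments of Cxcl2 would give.

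Among the CXC chemokines without ELR that the rule took, 1 of 8 passed 1 FPKM. This was Cxcl10, an attractant of activated T cells that is induced by interferons, at 14.6, 15.9 and 15.0 FPKM (mean 15.2 ± 0.658), which made up 98.5% of the class. Cxcl9 and Cxcl11, which share the receptor Cxcr3 with Cxcl10, had 1 fragment each over the 3 libraries. Cxcl16, a membrane-bound chemokine, was at 0.126 FPKM. Cxcl12, the ligand of Cxcr4 made by many stromal cells, was listed at 0 in every library, which allows a level of at most 0.0635 FPKM by the floor of 3 fragments. Cx3cl1, the only CX3C chemokine and a membrane-tethered one, was at 7.77, 8.32 and 7.33 FPKM (mean 7.80 ± 0.497).

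**Figure D2:**
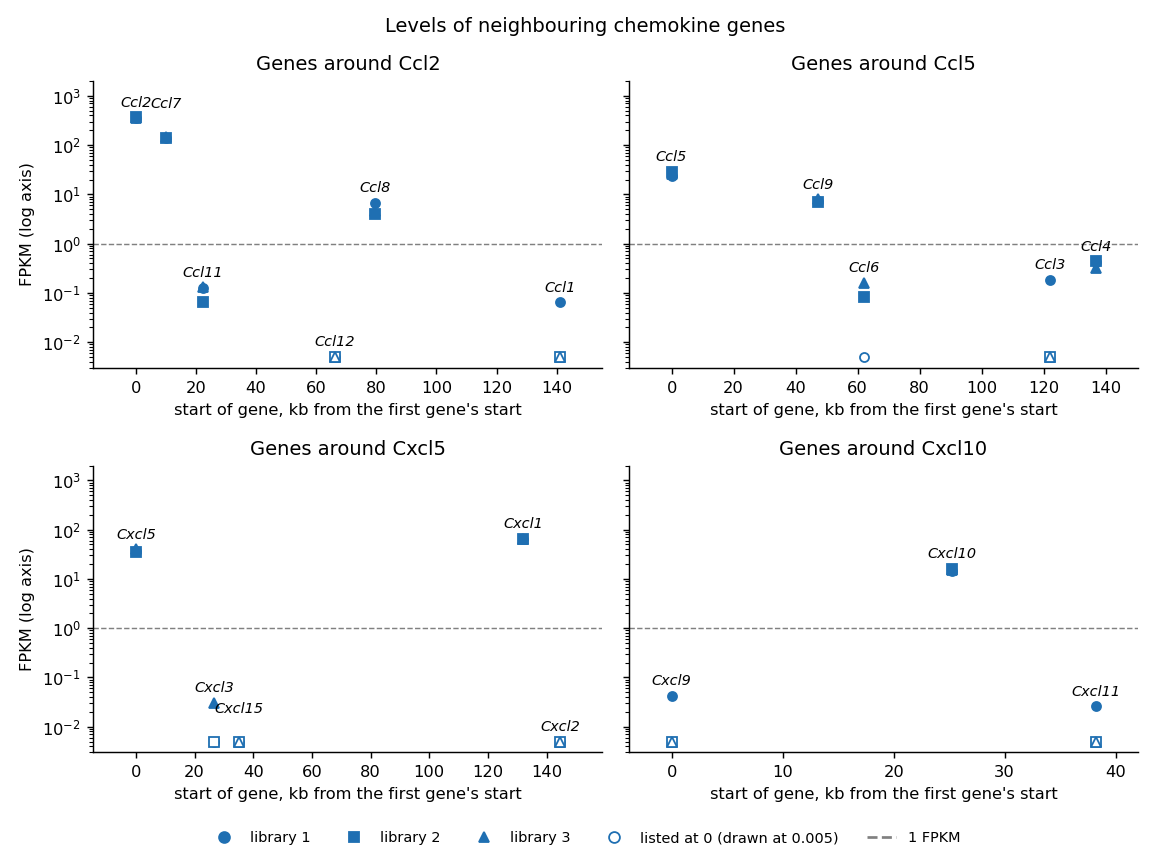
FPKM on a log axis of chemokine genes in 4 genomic neighbourhoods, against the distance in kb of each gene's start from that of the first gene; symbols are the 3 libraries, open symbols drawn at 0.005 are values listed at 0, and the dashed line is 1 FPKM. High and undetected genes lie side by side, as with Cxcl1 at 65.0 FPKM and Cxcl2 at 0.

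Many chemokine genes lie in clusters, and neighbours differed by orders of magnitude. With gaps of up to 200 kb joined, 44 members fell into 14 clusters, of which 4 held at least 4 members. Only members were placed, so genes outside the naming rule that lie between them are left out. Of the 22 members with a mean FPKM of at least 1, 11 were inside clusters and 11 among the 37 rows outside them, of which 7 are on unplaced scaffolds. On chr11, Ccl2 and Ccl7 lie 8.26 kb apart at 360.2 and 143.9 FPKM. The next genes along, Ccl11 and Ccl12, were at 0.108 and 0 FPKM, followed by Ccl8 at 5.07 and Ccl1 at 0.0213. The high genes were the first pair of this cluster, and Ccl2 was at least 862.9-fold above the level that 3 fragments of Ccl12 would give. In the other chr11 cluster, Ccl5 was at 26.0 and Ccl9 at 7.40 FPKM, and Ccl6, Ccl3 and Ccl4 were between 0.0603 and 0.391. On chr5, Cxcl5 and Cxcl1 flank the members Cxcl3 and Cxcl15, which were at 0.0103 and 0 FPKM, and Cxcl2 follows Cxcl1 after 10.8 kb. Cxcl10 stood alone between Cxcl9 (0.0142) and Cxcl11 (0.00860). In the fourth cluster of at least 4 members, which holds Il24, Il20, Il19 and Il10 on chr1, no gene reached 0.1 FPKM. The plot of neighbouring chemokine genes shows the first 3 of these clusters and that of Cxcl10.

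Of 33 interleukins, 7 passed 1 FPKM. Apart from Il34, all lay under 10 FPKM. In the IL-1 family, Il18, an inducer of interferon gamma, gave 8.28, 8.74 and 6.84 FPKM (mean 7.95 ± 0.992). Il33, a nuclear alarmin, gave 0.740, 0.929 and 0.640 FPKM, Il1a was at 0.0710 and Il1b was listed at 0. In the IL-6 family, Il11, which acts on bone and fibroblasts, gave 6.87, 6.29 and 7.24 FPKM (mean 6.80 ± 0.478). Il6, an inducer of the acute phase response, gave 0.816, 0.281 and 0.877 FPKM from 15, 5 and 16 fragments, and library 2 was the low one. Lif exceeded Il11 6.50 ± 0.341 times, and it exceeded Il6 54.4, 153.4 and 50.9 times in the 3 libraries. Among these 3 genes the order was thus Lif, Il11 and Il6 in every library.

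Among the ligands of the common gamma chain, 2 of 6 passed 1 FPKM. Il15, a growth factor of natural killer cells, gave 7.50, 6.22 and 6.07 FPKM (mean 6.59 ± 0.787). Il4, known from T helper cells and mast cells, gave 3.91, 4.04 and 4.19 FPKM (mean 4.05 ± 0.139). These Il4 values rest on 32, 32 and 34 fragments, and the exact Poisson interval in library 1 runs from 2.68 to 5.52 FPKM. Its neighbours Il13 and Il5, which T helper cells make together with Il4, were at 0.136 and 0.0613 FPKM. Il4 therefore stood apart from the rest of its cluster. Il7 had a mean of 0.0563 FPKM, and Il2, Il9 and Il21 were listed at 0.

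In the IL-12 family, Il23a, the p19 subunit of IL-23, gave 2.61, 1.77 and 2.49 FPKM (mean 2.29 ± 0.457). Its partner subunit Il12b was at 0.233 FPKM with 5, 2 and 12 fragments, Il27 was at 0.207 FPKM and Il12a was listed at 0. Il27 overlaps Apobr (35.0 FPKM) on the opposite strand. Il16, made as a precursor with PDZ domains, gave 4.69, 4.87 and 4.03 FPKM. Its span overlaps Stard5 (70.2 FPKM) on the opposite strand, and 26.0% of its bases are shared with other genes. In all, 8 of the 22 members above 1 FPKM overlap another annotated gene, and for Ccl25, Ccl27a and Il16 that gene itself reached 1 FPKM. No member of the IL-17 family (6 genes) or the IL-10 family (5 genes) reached 1 FPKM. Their highest members were Il17f at 0.116 and Il19 at 0.0740 FPKM.

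Of the remaining rows, 12 had a mean from 0.1 to under 1 FPKM, 16 lay above 0 and under 0.1 with at most 4 fragments in any library, and 31 were listed at 0 in every library. The rows at 0 include Ccl12, Ccl19, the Ccl21 genes, Ccl22, Ccl24, Ccl26, Cxcl12, Cxcl14, Il10, Il1b, Il2, Il17a and Il22. For these rows 3 fragments would correspond to between 0.0615 and 0.762 FPKM, depending on gene length. Levels near or under these values are not excluded at this depth. None of 12 housekeeping genes was listed at 0, but the lowest of them, Tbp, stood at 17.6 FPKM. This therefore says nothing about zeros of genes at low levels. In the Ccl21b row with a transcript in the annotation, 100% of the bases are shared with other gene models, so its 0 says only that no fragment was assigned. The Ccl21a row on chr4 shared 0% of its bases with the transcripts searched and was also listed at 0. Those transcripts did not include the rows on unplaced scaffolds, such as the second Ccl21a row, so sharing with them was not measured.

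In the deposited FPKM, the library ranges of neighbouring genes were mostly apart above 10 FPKM and mostly overlapped below it. Of 21 neighbouring pairs among the 22 members, 10 had library ranges that did not overlap. Csf1, Ccl2, Ccl7, Cxcl1, Lif and Cxcl5 were each apart from the next, whereas Cxcl5 and Il34 overlapped. Il34, Ccl5, Cxcl10, Ccl25 and Ccl27a were again apart. From Ccl27a down to Il4 every neighbour overlapped, as did Il23a, Csf2 and Ccl28. The lead of Csf1 over Ccl2, between 1.08 and 1.14 times in the libraries, depends on gene length. The deposited values match the mean length of the annotated isoforms, 1989 bases for the 7 isoforms of Csf1, of which the longest has 4176. With the longest isoform of each gene, Csf1 came to 189.1 and Ccl2 to 313.8 FPKM, so the order turned. In all, 3 of the 10 pairs turned in this way. The others were Lif (30.0) with Cxcl5 (34.6), and Il34 (19.1) with Ccl5 (23.3).

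**Figure D3:**
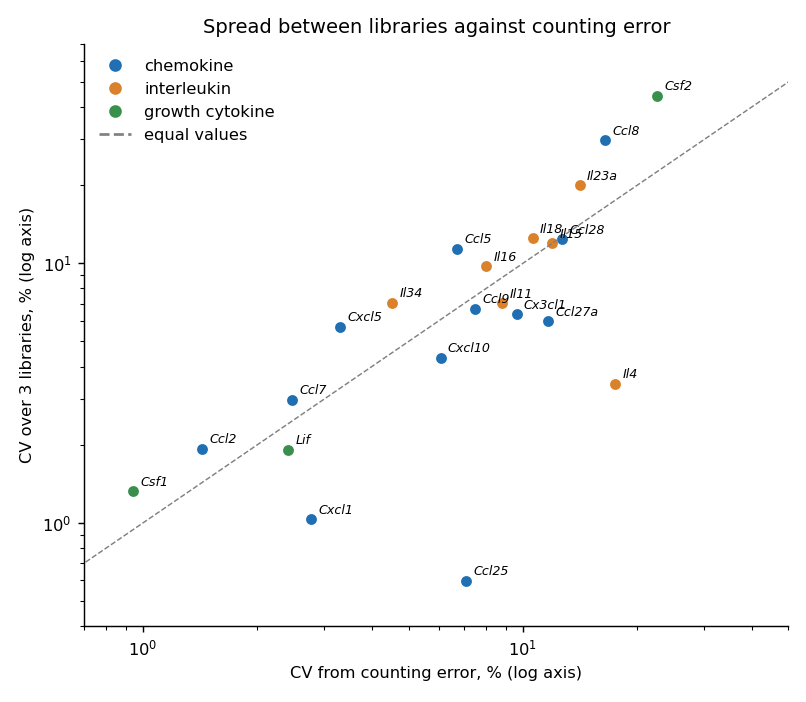
Coefficient of variation (CV) over the 3 libraries against the CV that counting error alone gives from the fragments, both in percent on log axes, for the 22 members above the limit of 1 FPKM; the dashed line marks equal values. Points scatter around the line, with Csf2 at the top (44.2% against 22.5%) and Ccl25 far below it (0.599% against 7.09%).

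The spread between libraries was about that of counting. For 12 of the 22 members the CV exceeded the counting CV, and for 0 of them it did so by more than 2 times. The CVs ran from 0.599% for Ccl25 to 44.2% for Csf2, whose counting CV was 22.5%. On the log2(FPKM + 1) scale the members had a median SD of 0.083, beside 0.057 over all 12905 genes that reached 1 FPKM. The largest SD was 0.38, for Csf2, and it fell to 0.24 as the largest of any member when library 1 was left out. Csf1 and Ccl2 thus had the smallest counting errors, and Csf2, Ccl8 and Il23a had the highest CVs.

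**Figure D4:**
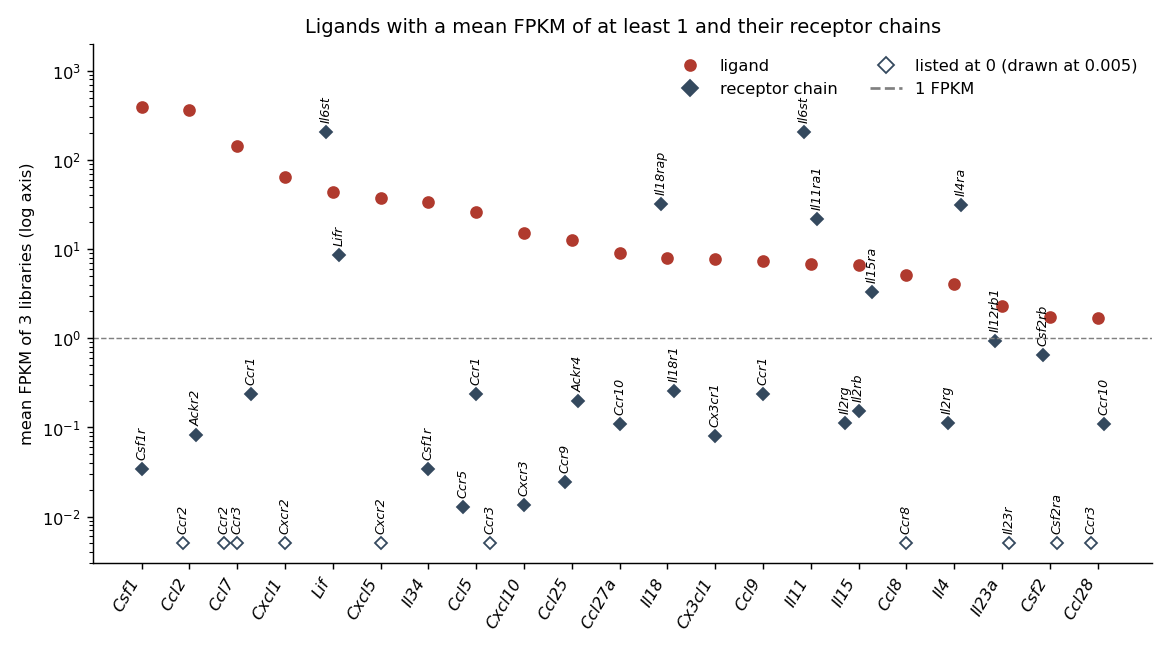
Mean FPKM of 3 libraries on a log axis for the 21 ligands with a mean of at least 1 that were paired with receptors (red circles) and for each receptor chain (dark diamonds, named beside them); open diamonds drawn at 0.005 are listed at 0, and the dashed line is 1 FPKM. For 16 ligands every chain lies under the line, and for Lif and Il11 all chains lie above it.

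None of the 12 chemokines above 1 FPKM had a receptor paired with it here that was above 1 FPKM in the same cells. Of 23 chemokine receptors, 1 had a mean FPKM of at least 1, 13 lay between 0 and 1, and 9 were listed at 0. The exception was Ackr3, an atypical receptor that takes up Cxcl12 and Cxcl11, at 58.9, 59.3 and 58.5 FPKM. Its ligand Cxcl12 was at 0, and Ackr3 was at least 934.0-fold above the level that 3 fragments of Cxcl12 would give. Ccr2, the receptor of Ccl2 and Ccl7, and Cxcr2, that of Cxcl1 and Cxcl5, were listed at 0 in every library, as were Cxcr4 and Ackr1. Ccr1 was the next highest after Ackr3, at 0.240 FPKM, and Cxcr3 and Cx3cr1 were at 0.0134 and 0.0807 FPKM.

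Of 45 receptor chains of the interleukins and colony-stimulating factors, 17 had a mean FPKM of at least 1, and Csf3r was among those listed at 0. Il1rl1, the gene of the IL-33 receptor ST2, was the highest at 572.5, 573.1 and 580.2 FPKM, and its partner Il1rap was at 37.1. These gene-level values do not separate transcript forms, so how much of Il1rl1 encodes the membrane receptor is not known. The level of Il1rl1 exceeded that of its ligand Il33 765.7 ± 145 times within libraries. The shared gp130 chain Il6st was at 205.6 FPKM, Osmr at 68.3, Il11ra1 at 21.9, Lifr at 8.63 and Il6ra at 8.62. All chains paired here with Lif, Il11 and Il6 were therefore above 1 FPKM.

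For other ligands the chains were uneven. Il18rap, the accessory chain of the IL-18 receptor, was at 31.9 FPKM, while the ligand-binding chain Il18r1 was at 0.259, a ratio of 127.4 ± 32.2. Il4ra was at 31.4 and the common gamma chain Il2rg at 0.112 FPKM. Il15ra was at 3.34 and Il2rb at 0.153. Csf2ra was listed at 0 and Csf2rb was at 0.647 FPKM. Of the 21 ligands above 1 FPKM that were paired with receptors, 2 (Lif and Il11) had every chain at 1 FPKM or more, 3 (Il18, Il15 and Il4) had some, and 16 had none. Il4 was paired here with Il4ra and Il2rg. The chain Il13ra1, which forms the other IL-4 receptor with Il4ra in cells outside the blood, was at 9.65 FPKM, so both chains of that receptor were above 1 FPKM. The plot of ligands and receptor chains shows these values.

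Of 3 antagonists looked for, 2 were listed under their symbols, and both passed 1 FPKM. Il18bp, which captures IL-18, was at 3.88, 5.11 and 4.01 FPKM, and Il18 exceeded it 1.85 ± 0.245 times. Il1rn, the IL-1 receptor antagonist, was at 2.23 FPKM, whereas Il1a and Il1b lay under 0.1. Downstream, 17 of 19 JAK, STAT and SOCS genes passed 1 FPKM. Jak1, a kinase bound to gp130, was the highest at 276.8 FPKM. Stat6 (175.4), Stat3 (105.1) and Socs3 (83.9), a feedback inhibitor of gp130 signalling, came next. Cish was at 0.920 FPKM, and Stat4, known from lymphocytes, was listed at 0.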

How the data were processed

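The data are UMI-RNAseq libraries (3) from NIH3T3 cells without treatment. Total RNA was checked for quality, and libraries for what the paper calls UMI-mRNA sequencing were prepared and sequenced as 150 nt paired-end reads. Tags were read with UMI-tools 1.0.0, reads were mapped with HISAT2 2.0.4 and PCR copies removed, and genes were counted with HTSeq 0.6.1. DESeq 1.10.1 is also named in the submitters' processing notes, with no role. The genome build and annotation are not given in the sources used here. The authors deposited FPKM values, 1 column per library and without pooling, in tables that are equal in 55573 rows. No column of values was left unused (0). A count model was not used, since FPKM are normalized values.

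Fragments were recovered by multiplying FPKM by the mean isoform length in GENCODE M21 (GRCm38), in which 55480 gene IDs and all 81 members were found; 99.2% of the values under 1000 fragments came out whole within 0.01 in each library. The arithmetic of the recovery was run on simulated data of 55480 genes. The totals of 3 of 3 libraries and the fragments of 100% of the genes with fragments were returned. The simulation used the same lengths, so it could not check whether the deposited values were made with them. Intervals are exact Poisson 95% intervals, and the floor is 3 fragments; both cover counting error only. Shared bases are those in stretches of at least 75 nt that match a transcript of another gene at 100% identity on either strand (blastn 2.17.0). The 7 rows on unplaced scaffolds had no transcript in the set searched. Python 3.11.15, numpy 2.4.6, pandas 2.3.3, scipy 1.17.1 and matplotlib 3.10.9 were used.

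The members, the lists (fibroblast, leukocyte, endothelial and retina markers, receptors, antagonists, JAK, STAT and SOCS genes, other cytokines) and the alternatives were chosen with earlier results of these data known. Named are all members with a mean FPKM of at least 1, those from 0.1 to 1 by value or range, the highest of each class, the members beside the limit, their receptors, and the highest and lowest gene of each list; other low members, receptors and pathway genes are named as examples, chosen after their values were seen. With 1 condition, no test was made. Alternatives were leaving out each library, TPM or median-of-ratios scaling, the median, other limits, a pseudocount of 0.1 instead of 1, and the longest isoform. Leaving out members that overlap a gene of at least 1 FPKM, fragments not divided by length, the ratio of Csf1 to Ccl2, and their shares and the neighbour order with the longest isoform were added after the data were seen.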

Additional observations from a re-analysis of the deposited data

How the results depend on the processing

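No paired analysis was possible because all 3 libraries belong to 1 condition. Of 66 alternative values, 47 were counted as the same. For sums, shares and the log2 ratio this meant a move of less than the SD between libraries. Counts had to move by no more than 1.5 times, and the largest SD had to keep its rounded value. The number 47 is no measure of robustness, since many of these values could not move further. Leaving out 1 of 3 libraries, or taking the median, cannot shift a mean by as much as the SD of those libraries. Scaling whole libraries cannot change the share of the 5 highest members or the number of members above 0. With TPM scaling the chemokines summed to 1005, the interleukins to 99.9 and the growth cytokines to 641.6, and the largest SD was 0.41; a pseudocount of 0.1 gave 0.56. With the longest isoform the sums were 598.5, 43.1 and 220.8, the 5 highest members held 84.7%, and the log2 ratio of Csf1 to Ccl2 turned from 0.14 to -0.73. Restricted to members of at least 1 FPKM, the 5 highest held 84.1%. Fragments not divided by length gave 86.7% and a log2 ratio of 1.20. At a limit of 0.1 FPKM, 34 members passed. Leaving out Ccl25, Ccl27a, Il16, Il27 and Cxcl17, which overlap a gene of at least 1 FPKM, gave 671.9 for chemokines and 64.2 for interleukins. Leaving out 1 library gave a largest SD from 0.24 (without library 1, the high one for Csf2) to 0.48, and 22 to 23 members. Members under 1 FPKM rest on at most 17 fragments in a library, so depth limits them.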

Other observations

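Of 26 cytokine genes that the naming rule did not take, 13 had a mean FPKM of at least 1. Mif, a macrophage cytokine, was the highest at 471.4, 463.5 and 458.5 FPKM. Kitl, the ligand of the receptor Kit, was at 394.0, 399.2 and 400.3 FPKM, and its ratio to Csf1 within libraries was 1.00 ± 0.0216 (SD, n = 3). This ratio depends on gene length: with the longest isoforms Kitl came to 116.5 and Csf1 to 189.1 FPKM. Vegfa was at 316.6 and Tgfb1 at 66.8 FPKM. Of the gp130 ligands outside the rule, Clcf1 was at 45.9 FPKM, beside 44.1 for Lif, while Osm was listed at 0 and its receptor chain Osmr was at 68.3. Tslp, an epithelial and stromal cytokine, was at 5.99 FPKM. The inflammatory cytokines Tnf, Ifng and Ifnb1 were listed at 0 in every library.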
